A study of Mus musculus with 6 samples.

Results

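The heat shock chaperone genes described here were 10 genes chosen by name, Hspa1a, Hspa1b, Hspa8, Hspb1, Cryab, Dnajb1, Hsph1, Hsp90aa1, Hspd1 and Hspe1, and all 10 were measured. They were read by 25 of the 45037 probe sets tested, each with a single gene symbol in the array annotation. The 10 genes are among 18193 named genes. Expression was measured on 6 Affymetrix whole-genome mouse arrays of microdissected arcuate hypothalamus from mice aged 2 weeks, and the deposited values are on a log2 scale, so that a step of 1 is a doubling. The 3 control arrays came from mice labelled Ctrl, and the 3 POMCDicerKO arrays from mice that lacked the microRNA-processing enzyme Dicer in Pomc-expressing cells. Both groups shared a mixed C57Bl/6J, FVB/N and 129 background and standard chow. The design text calls the 3 samples of each group independent, and each title names a mouse. What alleles the controls carried, which transgene deleted Dicer and the sex of the mice were not stated in the labels. In such tissue only a minority of cells express Pomc.

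Heat shock proteins keep other proteins folded, and cells make more of several of them when proteins unfold under heat, oxidation or other stress. HSP70 proteins such as Hspa1a, Hspa1b and Hspa8 bind exposed hydrophobic stretches in a cycle driven by ATP, which J-domain proteins such as Dnajb1 start and nucleotide exchange factors such as Hsph1 reset. Small heat shock proteins such as Hspb1 and Cryab hold unfolded clients without ATP, Hsp90aa1 completes the folding of kinases and steroid receptors, and Hspd1 with its lid Hspe1 folds proteins inside mitochondria. Heat shock factor 1 switches the inducible genes on by binding heat shock elements, inverted repeats of GAA in their promoters. Hspa8 is the constitutive member of the HSP70 family, whereas Hspa1a and Hspa1b are strongly inducible. In brain, Cryab is made mainly by oligodendrocytes and astrocytes.

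No member differed between the groups past the threshold, but at their main probe sets, those with the highest mean, 9 of the 10 genes followed a common order over the arrays. There, POMCDicerKO arrays 1 and 2 lay above all 3 controls and POMCDicerKO array 3 lay below all 3, for every member except Cryab. Of all genes on the arrays 3.21% had this order, and it was counted after the values were seen. Of the 25 member probe sets 14 had it (background 2.6%), and other probe sets of Hspa8, Hsp90aa1 and Hspe1 did not. The POMCDicerKO group was therefore split, with the controls between its arrays. At the main probe sets the widest spread was in the inducible pair Hspa1a and Hspa1b, and the narrowest in Hsp90aa1, Hspa8 and Hspd1. Fewer cells of a type and less RNA per cell cannot be told apart in such bulk samples.

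**Figure D1:**
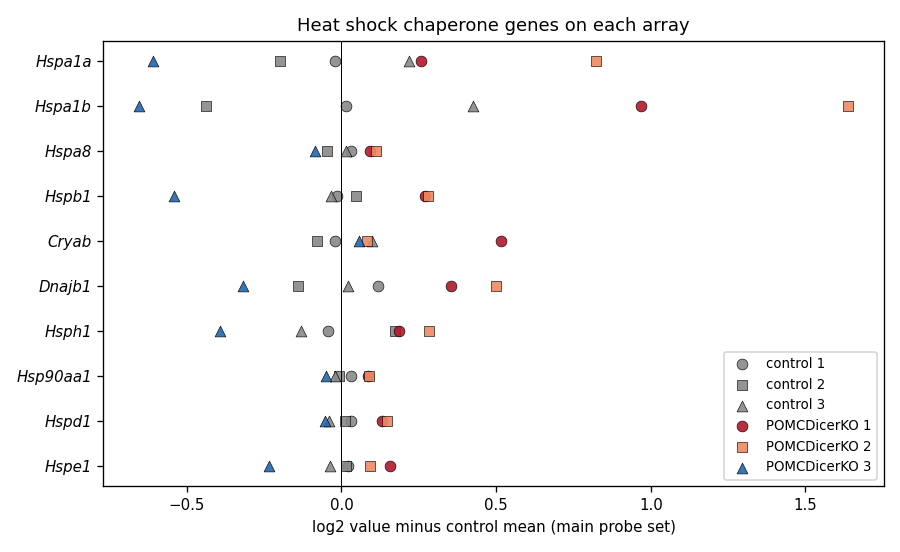
Deposited log2 value minus the control mean (horizontal axis) of each chaperone gene at its main probe set (rows), with 1 point for each of the 6 arrays and grey for controls. POMCDicerKO 3 is the lowest point for 9 of 10 genes (background 23.6% of genes). POMCDicerKO 1 and 2 lie to the right of the controls for the same 9, and 3.21% of all genes had this whole order.

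Promoter sequences of some members are shown as background, since heat shock factors bind elements in such sequences. Whether these elements have a part in the order over the arrays was not tested. RefSeq windows of assembly GRCm38.p6 were given for 7 of the 10 genes, and Hspa8, Cryab and Hsp90aa1 had none. The search used the inverted repeats GAANNTTC and TTCNNGAA, which read the same on both strands, and their longer forms, either repeat extended at the same spacing by a further unit (GAANNTTC by NNGAA, TTCNNGAA by NNTTC), each of which holds both shorter forms and is the reverse complement of the other. Capitals mark the bases of GAANNTTC or TTCNNGAA matches. Hspa1a and Hspa1b are neighbouring copies on chromosome 17, shown over the 250 bases before the start site (chr17:34972157-34972406, minus strand, and chr17:34959239-34959488, minus strand). The third is Hspb1, chosen because its controls were nearly equal while its POMCDicerKO arrays split (chr5:135887669-135887918, plus strand).
Hspa1a: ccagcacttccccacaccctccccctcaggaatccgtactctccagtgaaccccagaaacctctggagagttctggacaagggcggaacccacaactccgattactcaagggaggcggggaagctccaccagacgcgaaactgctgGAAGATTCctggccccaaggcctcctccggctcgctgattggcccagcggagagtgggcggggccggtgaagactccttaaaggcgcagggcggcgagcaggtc
Hspa1b: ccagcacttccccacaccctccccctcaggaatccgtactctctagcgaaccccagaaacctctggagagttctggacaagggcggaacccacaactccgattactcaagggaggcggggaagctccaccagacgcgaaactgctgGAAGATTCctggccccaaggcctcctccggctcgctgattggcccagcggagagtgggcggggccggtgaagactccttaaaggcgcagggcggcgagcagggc
Hspb1: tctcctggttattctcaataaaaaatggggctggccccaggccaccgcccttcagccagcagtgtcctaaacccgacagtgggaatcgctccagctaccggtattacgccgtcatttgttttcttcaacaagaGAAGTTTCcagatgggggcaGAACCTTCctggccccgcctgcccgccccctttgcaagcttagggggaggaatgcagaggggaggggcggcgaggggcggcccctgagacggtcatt

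The Hspa1a and Hspa1b stretches were identical at 247 of 250 bases (98.8%) and carried the same match, which began at position -104 from the start site in both. Hspb1 held 2 matches, which began at positions -117 and -97. Hspd1 and Hspe1 lie next to each other on chromosome 1 and are read in opposite directions, and a window of each held the same run of alternating repeats with both longer forms. It is shown on the Hspe1 strand (chr1:55088053-55088082, plus strand), beside the single upstream match of Hsph1 (chr5:149636351-149636380, minus strand).
Hspe1: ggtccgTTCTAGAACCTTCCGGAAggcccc
Hsph1: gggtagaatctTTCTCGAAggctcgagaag

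In all, 6 of the 7 genes with a window had a match within the 250 bases before a start site, and 2, Hspd1 and Hspe1, had a longer form. The exception was Dnajb1, which had no match over the 250 bases before a start site. Of all 32851 windows, 12.84% held either shorter form over the same stretch and 0.466% either longer form. These shares are per window, whereas the 7 genes were counted over 10 windows, so the measures are unlike. Hspd1 and Hspe1 share their stretch, and Hspa1a and Hspa1b are near copies, so their matches are not separate. A match describes the letters only, and imperfect repeats were not searched.

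Hspa1b, a stress-inducible HSP70, had the widest spread of the members. At its main probe set, 1452318_a_at, the controls read 8.26, 7.81 and 8.67 and the POMCDicerKO arrays 9.21, 9.89 and 7.59 on the log2 scale. POMCDicerKO arrays 1 and 2 were above every control and array 3 was below every control, so the groups overlapped. The control mean was 8.25 ± 0.43 (SD, n = 3) and the POMCDicerKO mean 8.90 ± 1.18 (SD, n = 3). The log2 difference was 0.65 with a standard error of 0.53 and a 95% interval from -0.57 to 1.88, and limma's adjusted p over the whole table was 1. A two-sided exact permutation test gave p = 0.5, where 3 against 3 arrays cannot go below 0.1. Between the lowest and the highest POMCDicerKO array the level differed 4.90-fold, against 1.82-fold within the controls.

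The other probe sets of Hspa1b put the arrays in the same order. Probe set 1427127_x_at read 7.85, 7.17 and 8.32 in controls and 8.79, 9.57 and 6.81 in POMCDicerKO. Probe set 1427126_at read 6.96, 6.50 and 7.69 in controls and 8.14, 8.90 and 5.92 in POMCDicerKO. In all 3 the order from low to high was POMCDicerKO 3, controls 2, 1 and 3, then POMCDicerKO 1 and 2. Their log2 differences were 0.61 with standard errors of 0.64 and 0.70. These probe sets were read on the same 6 arrays, so their shared order is no separate evidence about the groups.

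Hspa1a, the near-identical neighbour of Hspa1b, was read by 1452388_at. Its controls were at 8.29, 8.12 and 8.53, and its POMCDicerKO arrays at 8.57, 9.14 and 7.70. The arrays again ranked as for Hspa1b, with POMCDicerKO array 1 only just above control 3. The log2 difference of 0.16, with a standard error of 0.32, was within the spread between arrays (exact permutation p = 0.7). It was -0.18 without POMCDicerKO replicate 2 and 0.54 without replicate 3. Transcripts of the pair are close copies and could hybridise to each other's probes, so their values may not be separate measurements.

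**Figure D2:**
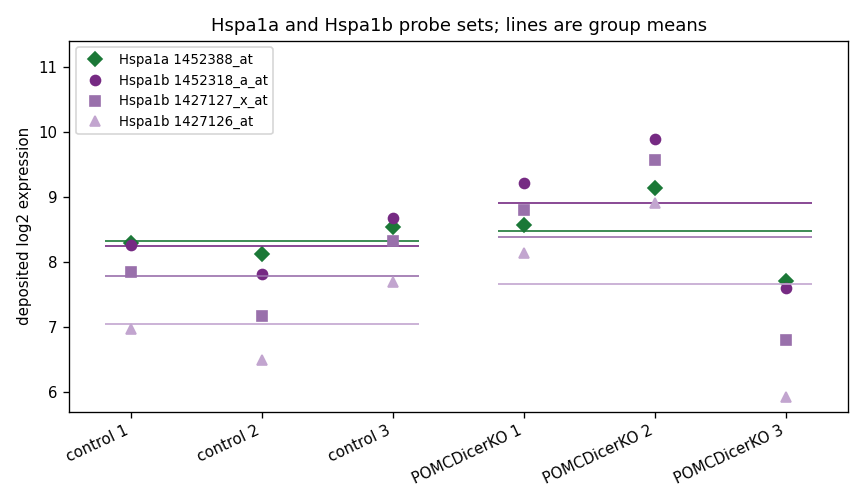
Deposited log2 expression (vertical axis) of the Hspa1a probe set and the 3 Hspa1b probe sets on each of the 6 arrays, with lines for group means. All 4 probe sets are highest on POMCDicerKO 2 and lowest on POMCDicerKO 3.

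Single arrays set the size of the Hspa1b difference at its main probe set. Without POMCDicerKO replicate 3 it was 1.30 with a standard error of 0.28, and without replicate 2 it was 0.16 with a standard error of 0.47. By limma the adjusted p was 1 in both cases. Leaving out control 2 gave 0.43, and leaving out controls 1 and 2 gave 0.22.

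The co-chaperones of the HSP70 cycle showed the same order with a smaller spread. Dnajb1, the J-domain partner of the inducible HSP70s, read 10.91, 10.66 and 10.82 in controls and 11.15, 11.30 and 10.48 in POMCDicerKO at 1416755_at. Its log2 difference was 0.18 with a standard error of 0.20 (exact permutation p = 0.5). POMCDicerKO arrays 1 and 2 exceeded the highest control and array 3 fell short of the lowest control. The second probe set, 1416756_at, read 8.47, 8.39 and 8.67 in controls and 8.79, 9.03 and 8.34 in POMCDicerKO, with a log2 difference of 0.21. Without POMCDicerKO replicate 2 the main difference of Dnajb1 was 0.018, without replicate 1 it was 0.091, and without replicate 3 it was 0.43. Without control 2 it was 0.11.

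Hsph1, an HSP110 protein that exchanges nucleotide on HSP70, read 11.55, 11.77 and 11.46 in controls and 11.78, 11.87 and 11.20 in POMCDicerKO at 1425993_a_at. POMCDicerKO array 1 lay close to control 2, and array 3 lay below all controls. The log2 difference was 0.025 with a standard error of 0.18, far within the spread of the arrays, and it was -0.10 without POMCDicerKO replicate 2 and 0.23 without replicate 3. Probe set 1423566_a_at gave 0.079 with a standard error of 0.21.

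Hspb1 (HSP27), a small heat shock protein, had controls that were nearly equal, at 7.88, 7.95 and 7.86 for 1422943_a_at. POMCDicerKO arrays 1 and 2 read 8.17 and 8.18, and array 3 read 7.35. The group means were 7.90 ± 0.043 and 7.90 ± 0.47 (SD, n = 3 each), so the means were alike while the SDs were not. Probe set 1425964_x_at showed the split more widely, with 7.29, 7.22 and 7.26 in controls and 7.48, 7.64 and 6.40 in POMCDicerKO. The log2 differences were 0.003 (95% interval -0.48 to 0.48) and -0.083 (-0.75 to 0.59). Without POMCDicerKO replicate 3 the main difference was 0.28, and it was -0.13 without replicate 1 and -0.14 without replicate 2.

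Cryab (alpha B-crystallin), the other small heat shock protein, was the member that did not follow the order. At its main probe set, 1434369_a_at, the controls read 9.31, 9.26 and 9.43 and the POMCDicerKO arrays 9.85, 9.42 and 9.39. POMCDicerKO array 1 stood above the rest, and arrays 2 and 3 lay just below control 3. The log2 difference was 0.22 with a standard error of 0.13 (exact permutation p = 0.3), and it was 0.07 without POMCDicerKO replicate 1. At 1416455_a_at the controls read 8.01, 7.92 and 8.03 and the POMCDicerKO arrays 8.71, 8.10 and 8.31, so the groups did not overlap. That difference was 0.39 with a standard error of 0.14 and a 95% interval from 0.054 to 0.72. Its unadjusted limma p was 0.028 and its adjusted p = 1, the exact permutation p was 0.1, and the difference was 0.22 without POMCDicerKO replicate 1. The remaining probe set, 1435837_at, lay near the lower end of the scale (3.96 to 4.18) and gave 0.052.

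The array values of Cryab are given here beside those of oligodendrocytes. Of 9 measured myelin markers, all 9 were higher on average in POMCDicerKO (background 44.9% of genes). By limma 6 had an unadjusted p under 0.05 (background 1.24% of probe sets) and 0 an adjusted one. Relative to the control mean, their median stood at 0.81, 0.11 and 0.51 on POMCDicerKO arrays 1, 2 and 3, and at 0.13, -0.13 and -0.001 on the controls. Their summed log2 level ran from 92.0 to 94.5 in controls and from 94.4 to 100.4 in POMCDicerKO. Cryab at 1416455_a_at ranked the POMCDicerKO arrays as the markers did, highest on array 1, then 3, then 2, whereas the main probe set 1434369_a_at ranked them 1, 2, 3. The part of myelin transcripts in the Cryab values was not tested. The 8 astrocyte markers had a median log2 difference of 0.051, with summed levels from 89.3 to 90.3 in controls and from 89.2 to 90.3 in POMCDicerKO.

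**Figure D3:**
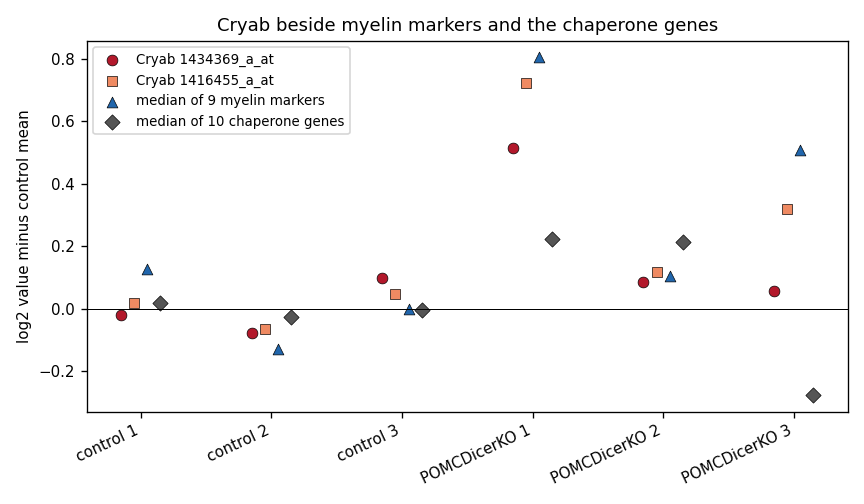
Log2 value minus the control mean (vertical axis) on each array for both well measured Cryab probe sets, for the median of 9 myelin markers and for the median of the 10 chaperone genes. On POMCDicerKO 3 the myelin median is at 0.51 and the chaperone median at -0.28, with Cryab above 0 at both probe sets.

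Hspa8 and Hsp90aa1, abundant chaperones of the cytosol, spread little at their main probe sets and more at some others. Hspa8 (HSC70), which also uncoats clathrin vesicles at synapses, read 13.55, 13.47 and 13.53 in controls and 13.61, 13.63 and 13.43 in POMCDicerKO at 1420623_x_at. Its log2 difference was 0.040 with a 95% interval from -0.14 to 0.21. Over the 3 other Hspa8 probe sets it ran from -0.025 to 0.042, and POMCDicerKO array 3 was the lowest array in each. The highest was a control in all 3, so the controls did not lie between there. Probe set 1431182_at had a range of 0.84 and 1420622_a_at of 0.41. Hsp90aa1, the stress-responsive cytosolic HSP90, read 13.25, 13.21 and 13.20 in controls and 13.31, 13.31 and 13.17 in POMCDicerKO at 1438902_a_at, a difference of 0.042 (95% interval -0.11 to 0.20). Its probe sets 1426645_at and 1437497_a_at gave 0.034 and 0.13, and there the widest spread was within the controls (12.09 to 12.52 and 11.06 to 11.59). The remaining pair, 1433251_at and 1441827_x_at, lay between 4.19 and 4.82, near the lower end of the scale. The main probe sets of both genes lay near the upper end of a scale that reached 14.35, and whether differences are compressed there was not tested.

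The mitochondrial chaperonin genes, which share the promoter stretch shown above, had the same order with small steps. Hspd1 (HSP60) read 11.60, 11.58 and 11.53 in controls and 11.70, 11.72 and 11.52 in POMCDicerKO at 1426351_at, a log2 difference of 0.074 with a 95% interval from -0.10 to 0.25. Hspe1 (HSP10) read 11.00, 11.00 and 10.94 in controls and 11.14, 11.07 and 10.75 in POMCDicerKO at 1450668_s_at, a difference of 0.005 with an interval from -0.24 to 0.25. A second Hspe1 probe set, 1422579_at, gave -0.087, and control 2 was its highest array. Hspe1 therefore had no direction that held over its probe sets.

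By limma, 0 of 25 member probe sets passed an adjusted p of 0.05, as did 0% of all 45037 probe sets, and without moderation the counts were also 0. At an unadjusted p under 0.05, 1 of 25 was higher in POMCDicerKO (background 1.24%) and 0 were lower (background 1.2%). The groups did not overlap for 1 of 25, the same Cryab probe set, with POMCDicerKO higher (background 3.14%), and for 0 with POMCDicerKO lower (background 3.22%). The mean was higher in POMCDicerKO at the main probe set of all 10 genes (background 44.9% of genes) and at 20 of 25 probe sets (background 50.6%). Most of these differences were small beside their errors, and for Hspb1 and Hspe1 the sign turned when each array was centred on its median. The median log2 difference over the 10 genes was 0.058, against -0.0099 over all 18193 genes. Without POMCDicerKO replicate 3 it was 0.25, without replicate 2 it was 0.011, and without replicate 1 it was 0.033. It was 0.14 with array weights and 0.089 without controls 1 and 2.

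**Figure D4:**
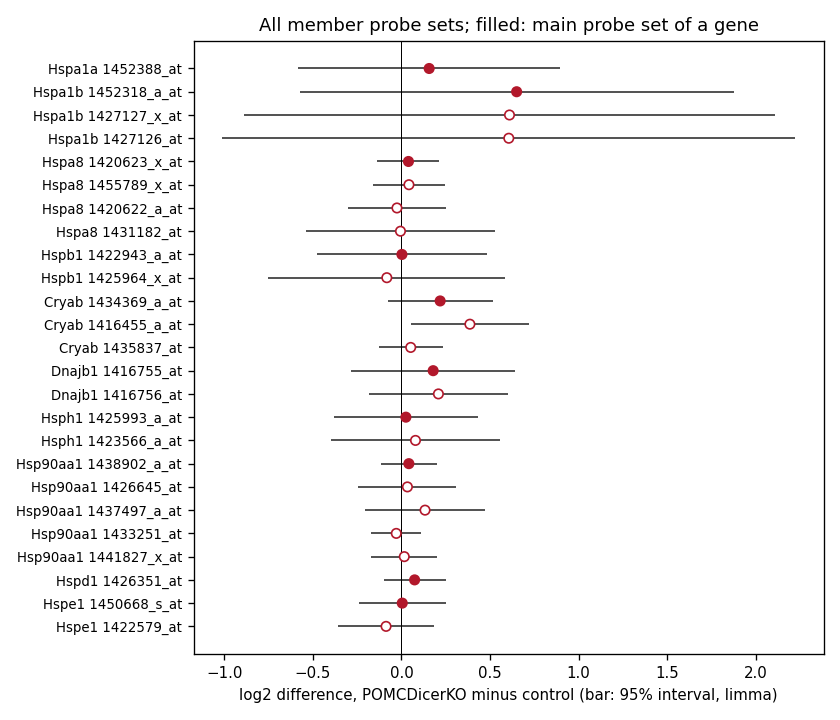
Log2 difference, POMCDicerKO minus control (horizontal axis), with limma's 95% interval for each of the 25 member probe sets (rows), filled for the main probe set of a gene. Every interval includes 0 except that of Cryab 1416455_a_at, which runs from 0.054 to 0.72.

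The order over the arrays was counted after the values were seen, in members chosen with earlier results of these data known. All members were read on the same 6 arrays, so their counts are a description and not separate evidence. All 3 controls lay between POMCDicerKO array 3 below and POMCDicerKO arrays 1 and 2 above for 9 of 10 member genes, against 3.21% of all genes and 4.41% of the 11742 genes with a mean of at least 6. By probe set the count was 14 of 25 (background 2.6%). POMCDicerKO array 3 was the lowest of the 6 arrays for 9 of 10 members (background 23.6% of genes) and 18 of 25 probe sets (background 19.3%). Wherever the order holds, array 3 is the lowest by definition, so these counts are not separate from those above. POMCDicerKO array 2 was the highest for 8 of 10 members (background 12.8%) and 14 of 25 probe sets (background 13.7%). Relative to the control mean, the median of the 10 genes was 0.22, 0.21 and -0.28 on POMCDicerKO arrays 1, 2 and 3, while the controls stood at 0.017, -0.028 and -0.003. The same median over all genes was -0.009, -0.007 and -0.010 on the POMCDicerKO arrays.

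Deposited values of POMCDicerKO array 3 were spread less than those of the other arrays. Its interquartile range over all probe sets was 3.37, against 3.44 to 3.49 on the others. After a further quantile normalisation, which removes that difference, the controls lay between for 9 of 10 members, against 2.61% of all genes. With each array centred on its median the count was also 9, against 3.77%. By probe set the counts were 13 of 25 (background 2.41%) and 14 of 25 (background 3.03%). POMCDicerKO array 2 was the highest for fewer members than as deposited. It was highest for 7 of 10 after quantile normalisation (background 11.3% of genes) and for 6 of 10 with centring (background 12.1%). As a sign of RNA integrity, the 3' minus 5' log2 difference of the Gapdh control probe sets was 0.064, 0.041 and 0.042 on the controls and -0.011, -0.022 and -0.011 on POMCDicerKO arrays 1, 2 and 3, so the groups did not overlap while array 3 lay with the other POMCDicerKO arrays. That of beta-actin was 1.12 on array 3, the lowest, and ran to 1.31. The part of RNA integrity in the chaperone values was not tested.

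The spread within POMCDicerKO exceeded the spread within controls for all 10 genes at their main probe sets (background 52.2% of genes). For the 9 genes with the order this follows from the order itself, so the count is no separate finding. Among the 11742 genes with a mean of at least 6, ordered by their range over the POMCDicerKO arrays, Hspa1b ranked 7th, Hspa1a 17th, Hspb1 128th and Dnajb1 129th. Over the control arrays the same genes ranked 105th, 892nd, 9584th and 2807th. Hspb1 thus had one of the narrower control ranges and one of the wider POMCDicerKO ranges. The range over all arrays was 2.29 for Hspa1b, 1.43 for Hspa1a, 0.82 for both Hspb1 and Dnajb1, and 0.14 for Hsp90aa1, where the median gene had 0.26. With 3 arrays a group, the difference in spread was not tested.

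**Figure D5:**
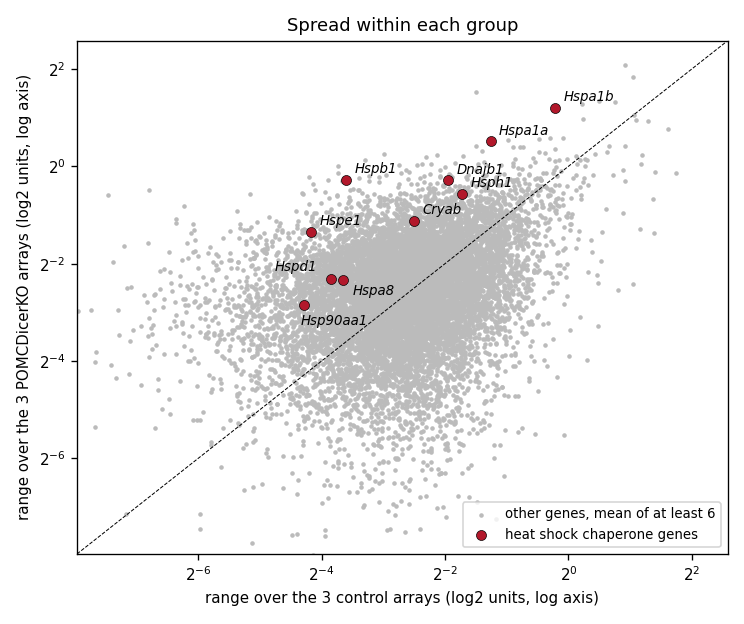
Range over the 3 control arrays (horizontal) against the range over the 3 POMCDicerKO arrays (vertical), both in log2 units on log axes, for genes with a mean of at least 6, with the chaperone genes in red and a dashed line of equal ranges. All 10 chaperone genes lie above the line, and Hspa1b, at 0.87 and 2.29, is the farthest to the upper right of them.

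In the wider chaperone network few single genes had the order, although some list medians had it. Of 79 further genes in 9 lists (heat shock factors, other HSP70, J-domain and HSP90 proteins, exchange factors, small heat shock proteins, the TRiC chaperonin, mitochondrial proteases and other heat-inducible genes), 72 were measured. Of these, 38 were higher and 34 lower in POMCDicerKO, with a median log2 difference of 0.0046, and 0 passed limma's adjusted threshold. At an unadjusted p under 0.05, 0 were higher and 1 was lower. The controls lay between POMCDicerKO array 3 and the other POMCDicerKO arrays for 3 of 72, namely Hspa4l, Chordc1 and Cct5. That is 4.17%, near the background of 3.21% of all genes. Chordc1, an HSP90 co-chaperone, read 10.23, 10.39 and 10.06 in controls and 10.53, 10.55 and 9.67 in POMCDicerKO. Hspa4l, an HSP110 protein, read 10.02, 10.02 and 10.03 in controls and 10.19, 10.16 and 9.87 in POMCDicerKO. Relative to the control mean, the medians of 3 of the 9 lists had the order. That of other heat-inducible genes was 0.14, 0.15 and -0.16 on POMCDicerKO arrays 1, 2 and 3, against -0.047 to 0.024 on the controls. That of other HSP70 proteins was 0.073, 0.055 and -0.16, against -0.014 to 0.020. That of other small heat shock proteins was 0.071, 0.0254 and -0.021, against 0.0076 to 0.0246, so it had the order by a very small margin. No single gene of the heat-inducible list or of the small heat shock protein list had the order.

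The single network gene with an unadjusted p under 0.05 was Hspb8, a small heat shock protein that works with Bag3 in autophagy of misfolded proteins. It read 7.75, 7.89 and 7.73 in controls and 7.58, 7.61 and 7.36 in POMCDicerKO, a log2 difference of -0.28 with a standard error of 0.089 (limma adjusted p = 1, exact permutation p = 0.1). Bag3 itself was at 0.064. Of the measured heat shock factors and their regulators, 2 of 4 were higher, and Hsf2, at 0.22 with a standard error of 0.20, had the smallest p. Hsf1 had no probe set of its own symbol and is not among them. Other HSP70 proteins numbered 4 of 9 higher, with mitochondrial Hspa9 at 0.13 and Hspa14 at 0.091. Among 15 further J-domain genes, 10 were higher, with Dnajb4 at 0.11 and Dnajc6, which acts with Hspa8 in uncoating, at -0.059.

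The remaining network lists had medians from -0.059 to 0.078. Of 7 measured HSP90 genes, which do not include Hsp90ab1, 2 were higher, with the activator Ahsa1 at 0.07 and the immunophilin Fkbp4 at -0.075. TRiC subunits, which fold actin and tubulin, were higher for 7 of 8, but the median was 0.021, with Cct8 and Cct2 both at 0.056. Exchange factors and HSP70 partners were higher for 4 of 9, with a median of -0.0057. Small heat shock proteins outside the members were higher for 4 of 7, with a median of 0.0012. Mitochondrial quality control genes were lower for 6 of 7, with a median of -0.059 and the protease Lonp1 at -0.059. Other heat-inducible genes were higher for 4 of 6, with a median of 0.078, the endoplasmic reticulum chaperone Hspa5 at 0.13 and the collagen chaperone Serpinh1 at 0.27.

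The genes most like Hspa1b over the 6 arrays were named by Pearson's r with 1452318_a_at, among 1330 other genes with a mean of at least 6 and a range of at least 0.5. They were Hspa1a (0.96), the HSP90 co-chaperone Ahsa2 (0.96), Pprc1 (0.96), Usp53 (0.96), Dnajb1 (0.96), Sap30 (0.95), Lats2 (0.95), Rrad (0.94), Nfil3 (0.94) and Aff1 (0.94). These r are a description over 6 arrays that share a tissue and a normalisation. Ahsa2 read 9.51, 9.44 and 9.50 in controls and 9.61, 9.85 and 9.34 in POMCDicerKO. Rrad, a small GTPase, read 8.78, 8.27 and 8.61 in controls and 8.89, 9.43 and 7.96 in POMCDicerKO.

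Immediate early genes, which neurons switch on within minutes of stimulation, overlapped with the order in part. The controls lay between for 2 of 13, Jun and Egr2 (background 3.21% of genes). Egr2 read 6.70, 5.76 and 6.04 in controls and 6.74, 7.24 and 5.74 in POMCDicerKO. Over the 13 genes, Pearson's r with Hspa1b ran from -0.84 for Dusp1 to 0.87 for Egr2. Relative to the control mean, the median of the 13 was 0.18, 0.24 and -0.20 on POMCDicerKO arrays 1, 2 and 3, and 0.33, -0.23 and -0.10 on the controls, so control 1 was high for these genes and not for the chaperones. Their summed log2 level ran from 100.7 to 108.0 in controls and from 101.1 to 107.6 in POMCDicerKO, and their part in the chaperone values was not tested. Glucocorticoid target genes had medians of 0.10, 0.12 and 0.016 on the POMCDicerKO arrays and 0.11, -0.31 and 0.29 on the controls.

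For the series as a whole, arrays correlated at r between 0.994 and 0.997 over probe sets, and array medians lay between 6.02 and 6.05. Transcripts of the Y-linked gene Eif2s3y were present on every array (9.04 to 9.53). Arcuate neuron markers were well above the lower end, with Pomc at a mean of 9.84 and Npy at 11.66. All 6 measured ones were lower on average in POMCDicerKO, where 10028 of all 18193 genes were lower. Their median log2 difference was -0.18, with 1 at an unadjusted limma p under 0.05 and 0 at an adjusted one. Their summed levels ran from 55.9 to 59.0 in controls and from 54.0 to 56.8 in POMCDicerKO. Meningeal markers were lower in POMCDicerKO for 8 of 8, with POMCDicerKO array 3 the lowest of the 6 arrays for 7 (background 23.6% of genes). Their median, relative to the control mean, was -0.53, -1.10 and -1.68 on POMCDicerKO arrays 1, 2 and 3 and 0.42, 0.51 and -0.93 on the controls, with summed levels from 55.1 to 67.8 in controls and from 50.5 to 57.1 in POMCDicerKO. Controls 1 and 2 thus stood apart for meningeal transcripts. The chaperone medians of all 3 controls lay within 0.05 of each other, but Hspa1b alone ranged over 0.87 in the controls at its main probe set. POMCDicerKO array 3 was the lowest array for 9 of 10 chaperone genes, against the same background of 23.6%. The part of meningeal tissue in the chaperone values was not tested. Batches of hybridisation or scanning are not in the labels and could not be compared.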

How the data were processed

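The deposited values were log2 expression levels that the authors made with RMA and the affy package, per the submitters' processing notes. RMA corrects background, normalises arrays by quantiles and summarises probes, so a change shared by most transcripts would have been removed. Values were used as deposited, except that 64 AFFX control probe sets were dropped. Symbols came from the array annotation, updated through Entrez identifiers in RefSeq (GRCm38.p6) for 34741 of 34945 probe sets with 1 symbol. The main probe set of a gene had the highest mean over all 6 arrays. Groups came from the titles. POMCDicerKO minus control was fitted by limma 3.58.1 in R 4.3.3, with p-values adjusted by Benjamini-Hochberg across the 45037 probe sets and a threshold of 0.05, and single values by a two-sided exact permutation test. The fit was tested on simulated data. The named genes were the members, up to 4 genes of each list with the smallest p, any past the threshold and the 10 most like Hspa1b; Chordc1, Hspa4l, Cct5, Egr2 and Jun were named after their values were seen. Members and lists were chosen with earlier results of these data known. Of the listed genes, 14, among them Hsf1 and Hsp90ab1, had no probe set of their own symbol and were not analysed here. Replicate numbers were checked for pairing by correlating deviations from group means over 22713 probe sets. Same-numbered arrays correlated at 0.20, 0.12 and 0.20, and other pairs between -0.19 and -0.022. Deviations within a group cancel out, so positive values for some pairs force negative ones for others. The numbers may mark pairs, but the labels do not say so. The main fit and the permutation test left pairs out, and only 1 alternative used the number as a block. The number of arrays limits the precision.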

Additional observations from a re-analysis of the deposited data

How the results depend on the processing

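Of 150 alternatives over the 10 main probe sets, 134 kept the sign and 16 turned it, and 0 brought a member past the threshold. The 134 include the settings with a mean of at least 6, a trended and robust prior, no moderation and a replicate block. These settings cannot change the log2 difference of a member, so there the sign was fixed beforehand. With each array centred on its median, Hspb1 was at -0.0047 and Hspe1 at -0.0028, and with a gene's probe sets averaged they were at -0.040 and -0.041. With single arrays left out, Hspa1a ran from -0.18 to 0.54, Hspb1 from -0.14 to 0.275, Hsph1 from -0.10 to 0.23 and Hspe1 from -0.072 to 0.125. Without controls 1 and 2 Hspa1a was at -0.062. The cause of these turns was not tested. The count of probe sets past the threshold over the whole table, 0, was 1 with a trended and robust prior, 1 without controls 1 and 2, and 0 to 2 with single arrays left out, and 0 of these were members. With the replicate number as a block, 0 probe sets passed and the median of the members was 0.058, so the block changed no call. The median ran from 0.011 to 0.25 with single arrays left out. The scalings of the array order were added after the data were seen. Probe sets near 4 carry little signal over background, which limits what they can show.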
